A study of Mus musculus with 12 samples.

Results

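The Hox cluster genes are the homeobox genes of the 4 mammalian Hox clusters. They were taken from the gene tables as the protein-coding entries whose name is Hox, a letter from a to d and a number, which gave 40 entries with 39 symbols among 54532 genes. The Hoxa cluster held 11 entries on chromosome 6, Hoxb 10 on chromosome 11, Hoxc 9 on chromosome 15 and Hoxd 10 on chromosome 2, where Hoxd4 was listed as 2 overlapping entries. Expression was measured by RNA-seq of polyadenylated RNA from newborn mouse testis, and all animals, controls included, carried the transgene Tg(Pou5f1-EGFP)2Mnn, in which the promoter of Pou5f1 (OCT4) drives GFP in germ cells. Pregnant dams received dexamethasone (dex, a synthetic agonist of the glucocorticoid receptor, GR) at 10 μg per g of body weight on E17.5 and E18.5 of gestation, their pups received the same dose at postnatal day 0, and testes were taken on postnatal day 1 (PN1). Control animals received saline on the same days. Germ cells with GFP and somatic cells without it were separated by sorting, which gave 4 groups of 3 libraries: saline germ, dex germ, saline somatic and dex somatic. Each replicate pooled testes from more than 1 separately dosed litter, so the spread between replicates is a spread between pools. The somatic libraries are a mixture of every GFP-negative testis cell type.

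Hox proteins are homeodomain transcription factors that give cells their position along the body axis. In each cluster the genes lie in the order of their paralogue groups, numbered from 1 to 13, and low-numbered genes are used towards the head and high-numbered genes towards the tail. Polycomb complexes hold the clusters silent where they are not used, TALE homeodomain cofactors of the Pbx, Meis and Pknox families bind DNA with the proteins, and the clusters also hold microRNA genes of the miR-10 and miR-196 families. The somatic cells of the gonad come from trunk mesoderm, whereas germ cells migrate into it.

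Library totals lay between 18459692 and 25178477 counts, so that 3 counts, the level taken as the floor of detection, stood for 0.114 to 0.165 CPM (counts scaled to library size). Intervals and floors cover counting error only. Summed over 10 germ cell markers, saline germ cells had 2655 to 2825 CPM and saline somatic cells 9.01 to 10.3 CPM. The germ cell level of 10 Sertoli cell markers was 1.33% of the somatic level in saline, that of 8 Leydig cell markers 2.79% and that of 12 markers of peritubular and interstitial stroma 2.15%. The 3 libraries of saline somatic cells were not alike for several Hox genes. Replicate 2 held 73 counts of Hoxb8 where replicates 1 and 3 held 5 and 0. It held 73 of Hoxa7 (4 and 19), 83 of Hoxa5 (3 and 28), 35 of Hoxb7 (3 and 3), 58 of Hoxb6 (17 and 15), 471 of Hoxc8 (162 and 150), 659 of Hoxb9 (311 and 428) and 13 of Hoxd1 (0 and 0). Fold changes and sums that this library moved strongly are also given without it. Its sum of erythroid markers was 389 CPM against 248 and 253 CPM in the other saline somatic libraries, and whether these belong together was not tested.

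A microRNA encoded in the Hox clusters and a site for it in Hoxb8 are printed first. Whether this microRNA has a part in any difference of Hoxb8 described below was not tested. MiR-196a is encoded at a pair of places in the Hox clusters, by Mir196a-1 between Hoxb13 and Hoxb9 (mature sequence at chr11:96265187-96265208, plus strand) and by Mir196a-2 in the Hoxc cluster (chr15:102973365-102973386, plus strand). Its close relative miR-196b lies in the Hoxa cluster (chr6:52230129-52230150, minus strand). Capitals mark the seed, bases 2 to 8, in the mature sequences from RefSeq (GRCm38.p6), and in the site from the 3′ UTR of Hoxb8 (GENCODE M21, chr11:96284888-96284909, plus strand) they mark the bases that pair with miR-196a.
miR-196a-5p: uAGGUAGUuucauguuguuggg
miR-196b-5p: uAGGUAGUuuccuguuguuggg
Hoxb8 site, as DNA: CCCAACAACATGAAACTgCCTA
Of the 22 bases of the site, 21 pair with miR-196a and the remaining 1, in lower case, is a G opposite U. That base lies opposite the seed, so the site does not hold an exact seed match. No other member had a site with at most 2 mismatches beside G:U pairs for either microRNA in its annotated 3′ UTR, out of 39 symbols searched. An exact match to the shared seed (letters ACTACCT in the transcript strand) was found in the 3′ UTRs of members that included Hoxa4, Hoxa5, Hoxa7, Hoxa9, Hoxb1, Hoxb6, Hoxb7 and Hoxc8. These are matches of letters. Mature microRNAs were not measured in these libraries.

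Summed by cluster, Hox RNA was highest in Hoxb in germ cells and in Hoxd in somatic cells. In FPKM (fragments scaled to gene length and library size), the scale on which levels of different genes can be compared, the Hoxb genes summed to 32.4 ± 6.26 in saline germ cells and to 10.0 ± 3.86 in saline somatic cells (SD, n = 3). The Hoxd genes summed to 2.87 ± 0.245 in saline germ cells and to 113.8 ± 12.4 in saline somatic cells. The Hoxc genes gave 4.62 ± 0.885 and 30.5 ± 2.06, and the Hoxa genes, the lowest cluster in both, 1.88 ± 0.187 and 2.48 ± 2.10. Hoxb therefore held 77.3% of the summed Hox FPKM of saline germ cells and 6.40% of that of saline somatic cells, whereas Hoxd held 6.9985% and 72.5%. Without replicate 2 the sum of saline somatic cells was 7.82 FPKM for Hoxb and 1.28 for Hoxa, the latter below the germ cell sum instead of above it. All 10 Hoxb genes lay above 3 counts in every germ library of both treatments, against 5 of 11 Hoxa, 6 of 9 Hoxc and 5 of 10 Hoxd entries in saline germ cells.

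**Figure D1:**
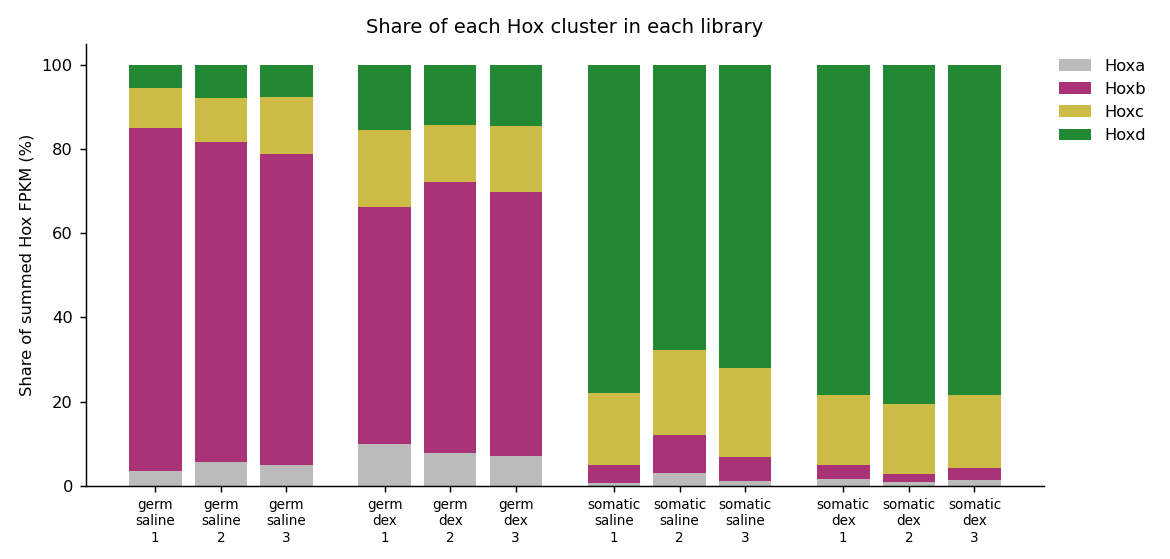
Share of the summed Hox FPKM (y axis, percent) held by each cluster in each of the 12 libraries (x axis, group and replicate). Hoxb took 74.1% to 81.5% in the 3 saline germ libraries, and Hoxd 67.6% to 77.9% in the 3 saline somatic libraries.

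Within Hoxb, germ cells had the middle of the cluster highest. Hoxb7 was at 10.1, 6.28 and 6.68 FPKM in replicates 1, 2 and 3 of saline germ cells (mean 7.68). Hoxb4, known from blood stem cells, was at 7.27, 6.38 and 7.26 FPKM (mean 6.97). Hoxb8, known for its part in myeloid cells and microglia, was at 6.49, 3.96 and 4.27 FPKM (mean 4.91). The ranges of these 3 genes overlapped, so their order is not resolved. Below them stood Hoxb6 at 3.45 ± 0.991, Hoxb5 at 3.06 ± 0.397, Hoxb13 at 2.47 ± 0.219, Hoxb9 at 1.62 ± 0.135 and Hoxb1, the hindbrain gene at the anterior end, at 1.52 ± 0.600 FPKM. Only Hoxb2 and Hoxb3 stayed under 1 FPKM in this cluster, at 0.323 and 0.380. Outside Hoxb, the 3 highest Hoxc genes of saline germ cells were Hoxc9 at 1.5975 ± 0.496, Hoxc13, a gene of hair and nail, at 1.37 ± 0.284 and Hoxc4 at 0.568 ± 0.076 FPKM. The 3 highest Hoxd genes were Hoxd8 at 0.945 ± 0.170, Hoxd1 at 0.710 ± 0.290 and Hoxd9 at 0.627 ± 0.279 FPKM. The 3 highest Hoxa genes were Hoxa4 at 0.383, Hoxa3 at 0.302 and Hoxa7 at 0.295 FPKM. Hoxa6 and both Hoxd4 entries had no counts in any of the 6 germ libraries.

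Somatic cells had a single high Hoxb gene and a block of high genes in Hoxc and Hoxd. Hoxd9 was at 76.3, 58.9 and 60.2 FPKM in saline somatic replicates 1, 2 and 3, Hoxd8 at 34.7, 30.0 and 29.8, and Hoxd10, known from lumbar motor neurons and the limb, at 14.5, 16.0 and 14.8. The libraries of these 3 genes did not overlap, and all were above Hoxc6, the highest Hoxc gene, at 10.4, 10.8 and 13.2 FPKM. Hoxb9 came next at 5.82, 10.2 and 7.71 FPKM, and its range overlapped that of Hoxc4 at 5.99, 5.995 and 7.26. In Hoxc the genes from Hoxc4 to Hoxc10 all had a mean of at least 1 FPKM, with Hoxc8 at 3.95, Hoxc10 at 3.31, Hoxc5 at 2.93 and Hoxc9 at 2.24. In Hoxd, by contrast, Hoxd11 was at 0.578 and Hoxd3 at 0.873, so the high genes were the neighbours Hoxd8, Hoxd9 and Hoxd10. In Hoxb, the genes after Hoxb9 were Hoxb6 at 0.650 and Hoxb8 at 0.399 FPKM, and most of the counts of Hoxb8 came from replicate 2. In Hoxa the 3 highest were Hoxa5, known for its part in the lung, at 0.844, Hoxa7 at 0.462 and Hoxa9 at 0.345 FPKM, the first 2 again with most of their counts in replicate 2. Hoxa13, Hoxb1, Hoxc12, Hoxc13 and Hoxd12 had no counts in any of the 6 somatic libraries.

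**Figure D2:**
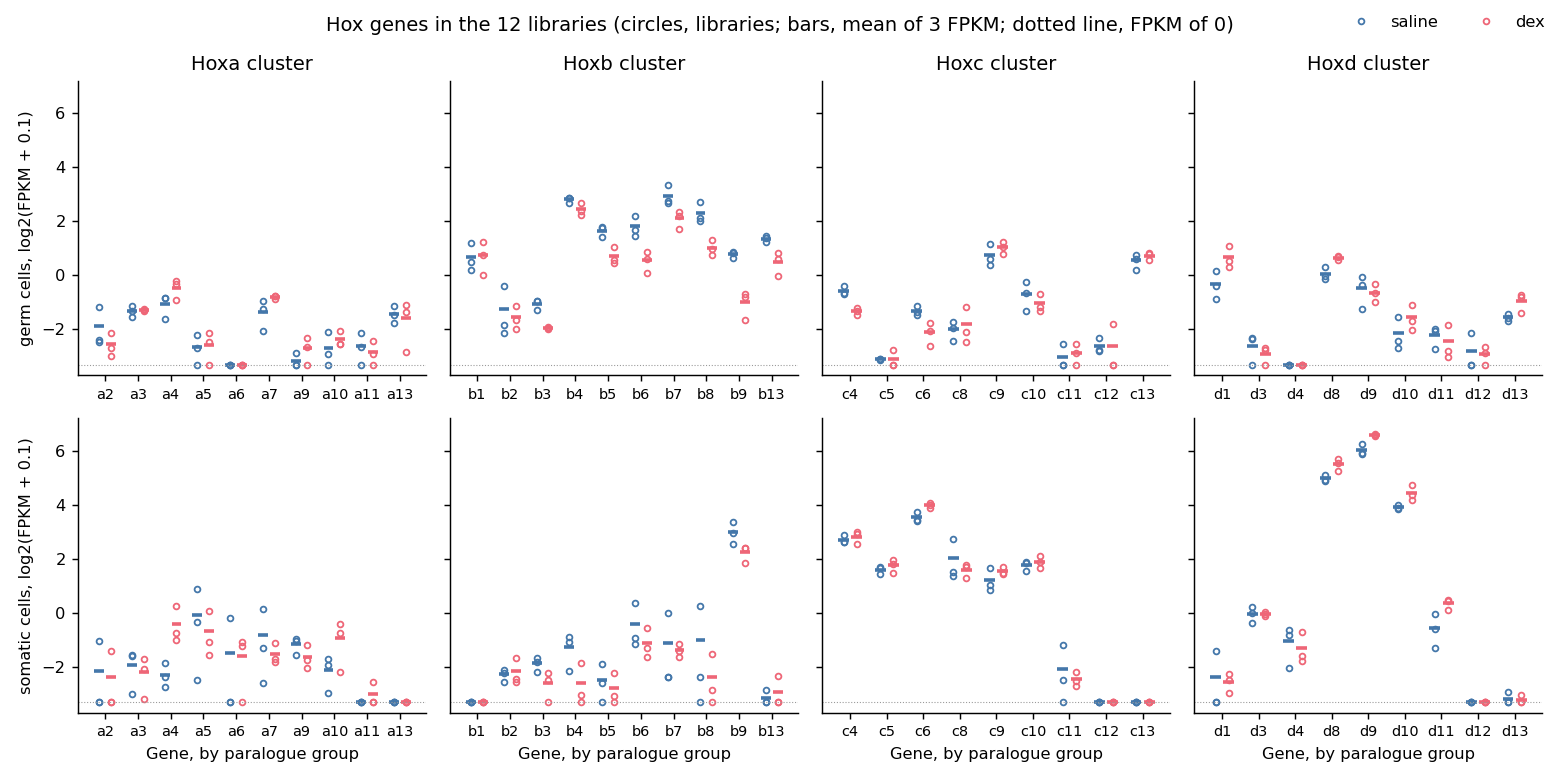
FPKM of Hox genes on a log2 scale with 0.1 added (y axis), by cluster and paralogue group (x axis), in germ cells (top) and somatic cells (bottom). Circles are libraries, bars the mean of 3, blue saline and red dex, and the dotted line is an FPKM of 0; one of the 2 Hoxd4 entries is shown. The Hoxb genes stand out in germ cells, Hoxb9, Hoxc4 to Hoxc10 and Hoxd8 to Hoxd10 in somatic cells.

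Between the saline populations this contrast was tested gene by gene. Of 27 members that passed the filter on low counts, 11 were higher and 12 lower in germ cells (edgeR, adjusted p at or under 0.05). The populations differed in most of their genes, since 39.8% of 18870 genes tested were higher in germ cells and 36.7% lower. The split ran by cluster. Of the 10 Hoxb genes 9 were tested, and 7 were higher and 1 lower, with a median log2 fold change of 4.19. Of the 30 other entries 18 were tested, and 4 were higher and 11 lower, with a median of -3.18, against a median of 0.07 over all genes tested. A member high in one population and absent from the other passes the filter through the first, so these counts describe the members and do not measure how unusual they are. The 13 entries that did not pass were 7 of Hoxa, Hoxb2, Hoxc11, Hoxc12, Hoxd12 and both entries of Hoxd4.

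Among the Hoxb genes, Hoxb4 had 18.8, 16.5 and 18.6 CPM in saline germ cells and 0.985, 1.21 and 0.334 CPM in saline somatic cells, so that every germ library was above every somatic library. Its log2 fold change was 4.33 ± 0.33 (SE, adjusted p = 1.44e-07). Hoxb7 was higher by 4.19 ± 0.60 (adjusted p = 4.23e-05), Hoxb5 by 5.03 ± 0.56 (adjusted p = 4.89e-06) and Hoxb6 by 2.25 ± 0.45 (adjusted p = 6.45e-04) on the log2 scale. Hoxb8 had 17.2, 10.5 and 11.2 CPM in germ cells and 0.246, 3.16 and 0 CPM in somatic cells, a log2 fold change of 3.41 ± 0.78 (adjusted p = 1.63e-03) that was 6.61 without somatic replicate 2. Without that library Hoxb7 stood at 6.23, Hoxb5 at 6.32 and Hoxb6 at 3.05. Hoxb13, the gene at the posterior end, known from the prostate, had 4.96 to 5.93 CPM in germ cells and a total of 2 counts in the somatic libraries (log2 fold change 7.16 ± 0.64, adjusted p = 6.60e-07), both in replicate 2, without which it stayed called (adjusted p = 1.84e-06). Hoxb1, with 46 to 115 counts in each germ library and none in somatic cells, was at least 25.2-fold higher, taking 3 counts per library as the floor.

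Hoxb9 broke this pattern. It lies between Hoxb13 and Hoxb8, which were both higher in germ cells, and it was lower there, at 4.41, 3.79 and 4.34 CPM against 15.3, 28.5 and 20.4 CPM in somatic cells (log2 fold change -2.42 ± 0.23, adjusted p = 1.37e-06). Its germ cell level was 19.5% of the somatic level. The Sertoli, Leydig and stromal marker sums were at 1.33% to 2.79%, and the sum of 8 macrophage markers was nearer, at 16.5%. The sum of nerve and Schwann cell markers lay just under that of macrophage markers. The sum of 7 endothelial markers was at 43.9%, but 3 of these markers were called higher and 3 lower in germ cells. The part of somatic RNA in the germ cell level of Hoxb9 was not tested. Mir196a-1, annotated next to Hoxb9 on its posterior side, had 103, 170 and 158 counts in saline somatic cells and 1, 2 and 4 in saline germ cells (log2 fold change -5.86 ± 0.48, adjusted p = 2.67e-07). These reads come from polyadenylated RNA over the precursor.

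In Hoxc and Hoxd the 3 genes highest in somatic cells were lower in germ cells. Hoxd9 had 167, 137 and 132 CPM in saline somatic cells and 1.87, 0.694 and 1.46 CPM in saline germ cells, a log2 fold change of -6.79 ± 0.22 (adjusted p = 7.47e-11). Hoxd10 differed by -6.92 ± 0.32 (adjusted p = 1.45e-09) and Hoxd8 by -5.19 ± 0.15 (adjusted p = 3.11e-11). The germ cell levels of Hoxd9 and Hoxd10 were 0.925% and 0.817% of the somatic levels, below the 1.33% of the Sertoli marker sum, and that of Hoxd8 was 2.89%. Hoxc5, with 1 count in each saline germ library and 201 to 203 in each somatic one, had the most negative fold change of all members at -7.50 ± 0.41 (adjusted p = 7.25e-09). Hoxc6 was at -5.36 ± 0.22, Hoxc8 at -4.85 ± 0.50, Hoxc4 at -3.61 ± 0.22 and Hoxc10 at -2.76 ± 0.35, all called, and Hoxc8 stood at -4.21 without somatic replicate 2. Hoxc9 was not called, at -0.62 ± 0.32 (adjusted p = 0.0977), and it was called without germ replicate 3 (adjusted p = 0.0365) or somatic replicate 3 (adjusted p = 0.0470). Hoxd3 and Hoxd11 were called lower at -3.89 and -2.47, and Hoxa9 was at -4.90 ± 0.87 (adjusted p = 2.51e-04). In the annotation release used here, 62.9% of the exonic bases of Hoxd3 are shared with other genes, so its reads cannot be fully separated from theirs.

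The group 13 genes of Hoxa, Hoxc and Hoxd went the other way, and so did Hoxd1 at the anterior end of Hoxd. Hoxc13 had 80, 49 and 81 counts in saline germ cells and none in somatic cells, which makes it at least 24.1-fold higher in germ cells, and Hoxa13 had 20, 9 and 13 counts against none, at least 4.77-fold higher. Hoxd13, known from digits and the genital tubercle, had 13, 10 and 14 counts in germ cells and 0, 2 and 0 in somatic cells (log2 fold change 3.99 ± 0.91, adjusted p = 1.60e-03). Hoxd1 had 19, 23 and 39 counts in germ cells and 0, 13 and 0 in somatic cells (2.67 ± 0.97, adjusted p = 0.0256), and its call was lost without germ replicate 2 (adjusted p = 0.0638) or 3 (0.110) or without somatic replicate 1 (0.0629) or 3 (0.0604). All somatic counts of Hoxd1 and Hoxd13 came from replicate 2, and without it both were called, at an adjusted p of 4.11e-04 and 1.59e-03, against somatic libraries without counts, where the size of the fold change depends on the prior count. With Hoxb13, all 4 members of paralogue group 13 were thus higher in germ cells, though 3 of them lay under 2 FPKM.

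In dex the contrast of the populations was of the same kind. Of 28 members tested 10 were higher and 13 lower in germ cells, where 40.5% and 35.7% of 18778 genes were. Of the 10 Hoxb genes 7 were higher and 1 lower, with a median of 4.03, and of 18 tested entries of the other clusters 3 were higher and 12 lower, with a median of -3.61. Hoxb9 was at -3.60 ± 0.35 (adjusted p = 1.19e-06), Hoxd9 at -7.58 ± 0.14 (adjusted p = 1.40e-12), Hoxc5 at -7.78 ± 0.61 (adjusted p = 1.59e-07) and Hoxd13 at 5.44 ± 0.95 (adjusted p = 2.10e-04). Hoxb1 was at least 23.8-fold and Hoxc13 at least 24.8-fold higher in germ cells. Hoxa13 did not pass the filter in dex, with 2, 19 and 19 counts in germ cells and none in somatic cells. Hoxa3 was at 1.30 ± 0.72 and was not called (adjusted p = 0.120), and it was called without somatic replicate 1 (adjusted p = 0.0479). Hoxa9 was called lower at -2.11 ± 0.83 (adjusted p = 0.0353). The call was lost without germ replicate 1 (adjusted p = 0.113) or 3 (0.0843) or without somatic replicate 1 (0.132) or 3 (0.0544). Hoxc9 was called lower at -0.63 ± 0.26 (adjusted p = 0.0417), and this call was lost without germ replicate 1 (0.0949), 2 (0.142) or 3 (0.0503) or somatic replicate 3 (0.109).

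**Figure D3:**
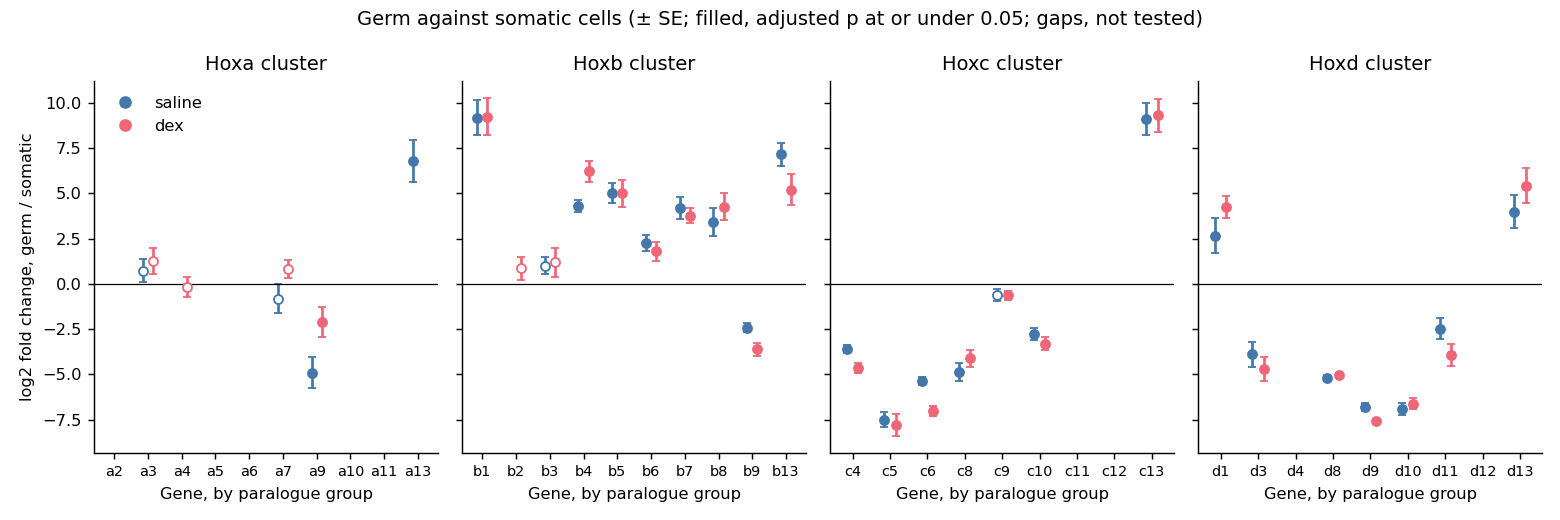
Log2 fold change of germ over somatic cells (y axis, ± SE) for Hox genes tested, by cluster and paralogue group (x axis), in saline (blue) and dex (red). Filled points have an adjusted p at or under 0.05 and a gap is a gene not tested; the points at b1, c13 and a13 stand for genes with no somatic counts, whose size depends on the prior count. In saline 7 Hoxb genes lie above 0 as filled points and Hoxb9 below.

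Whether GR activation in vivo altered these genes was asked first in germ cells. Hoxb5, Hoxb6, Hoxb8 and Hoxb9 fell, by 2.01-fold, 2.56-fold, 2.58-fold and 4.02-fold. These 4 were the only calls among 25 members tested, where 0.507% of 18550 genes were lower in dex and 0.739% higher. No member was called higher by edgeR, DESeq2 or limma on FPKM. In that direction 2 members, Hoxd1 and Hoxd8, had an unadjusted p under 0.05 by edgeR. Over all genes tested, 2736 of 18550 had one in either direction. In sorted pools of cells, fewer cells with a transcript and less of it per cell cannot be told apart.

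The called genes are neighbours on chromosome 11 (GRCm38/mm10, plus strand), Hoxb9 at chr11:96271457-96276595, Hoxb8 at chr11:96281905-96285315, Hoxb6 at chr11:96292476-96301569 and Hoxb5 at chr11:96303336-96306121, with Hoxb7 among them. Hoxb8 had 17.2, 10.5 and 11.2 CPM in saline and 4.18, 4.86 and 6.21 CPM in dex, with every dex library below every saline library and a log2 fold change of -1.37 ± 0.23 (adjusted p = 0.00902). Hoxb9 had 4.41, 3.79 and 4.34 CPM in saline and 0.564, 1.21 and 1.34 CPM in dex (-2.01 ± 0.33, adjusted p = 0.00959), again with no overlap. Hoxb6 had 9.001, 5.23 and 6.14 against 3.34, 2.81 and 1.86 CPM (-1.36 ± 0.28, adjusted p = 0.0306). Hoxb5 had 9.31, 7.31 and 9.07 against 3.52, 5.50 and 3.82 CPM (-1.004 ± 0.22, adjusted p = 0.0426). In all 4 genes the groups did not overlap.

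Another 4 Hoxb genes had dex libraries that all lay under the saline libraries but were not called by edgeR. How many of all genes tested were separated in this way was not counted. A lack of overlap, here and elsewhere, therefore describes the libraries and is not a further test. Hoxb3 was at -1.27 ± 0.42 (adjusted p = 0.157), Hoxb13 at -0.92 ± 0.26 (adjusted p = 0.101), Hoxb7 at -0.89 ± 0.22 (adjusted p = 0.0710) and Hoxb4 at -0.39 ± 0.15 (adjusted p = 0.243). Hoxb7 was called by DESeq2 (adjusted p = 0.0111), and without the filter on low counts edgeR called Hoxb7 (adjusted p = 0.00219) and Hoxb13 (adjusted p = 0.0417). Of the exonic bases of Hoxb3, 52.9% are shared with its antisense RNA, from which its reads cannot be told apart without strand. Hoxb2 at -0.46 ± 0.60 and Hoxb1 at 0.03 ± 0.35 (adjusted p = 0.980) overlapped between the treatments. The Hoxb estimates thus ran from 0.03 at Hoxb1 to -2.01 at Hoxb9, without strictly following the order of the genes. Differences between these genes were not tested. The 10 Hoxb genes, all tested, had a median log2 fold change of -0.96, with 9 below 0. The 15 tested entries of Hoxa, Hoxc and Hoxd had a median of 0.17, with 9 above 0, against -0.003 over all genes tested. The Hoxb sum was 39.3, 27.2 and 30.5 FPKM in saline germ cells and 14.9, 20.4 and 19.3 FPKM in dex germ cells, without overlap, and the share of Hoxb in the summed Hox FPKM was 77.3% ± 3.8 in saline and 61.2% ± 4.3 in dex (SD, n = 3).

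The calls in germ cells rest in part on 1 library. Saline replicate 1 had the highest CPM of every Hoxb gene among the saline germ libraries. The Hoxb genes were read from the same pools, so they are not separate readings of the difference. Without saline replicate 1, none of the 4 was called by edgeR. Hoxb8 then stood at -1.11 (adjusted p = 0.0662), Hoxb9 at -1.97 (0.0630), Hoxb6 at -1.10 (0.183) and Hoxb5 at -0.94 (0.183), so that the directions stayed while the calls were lost. The median log2 fold change of the Hoxb genes was then -0.90, with 8 of 10 below 0. The number of genes called over the whole table was 49 without this library and 231 with it. The call of Hoxb6 was also lost without dex replicate 3 (adjusted p = 0.0976). The call of Hoxb5 held only without dex replicate 2 (adjusted p = 0.0184), and without the other libraries its adjusted p was 0.0769 to 0.183. Hoxb8 and Hoxb9 were called without any of the other 5 libraries, at an adjusted p of at most 0.0403 and 0.0344.

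Markers of somatic cells were read beside these genes. The sum of 10 Sertoli markers was 84.7 to 104 CPM in saline germ cells and 56.1 to 69.3 CPM in dex germ cells, and 1 of them, Inha, was called lower at -0.90 (adjusted p = 0.0233). The Leydig sum was 14.9 to 17.51 CPM in saline and 9.45 to 12.7 CPM in dex. The sum of 7 erythroid markers was 7.85 to 9.62 and 4.49 to 7.74 CPM. The macrophage sum (8 markers) was 9.49 to 13.8 and 14.9 to 17.7 CPM. Each of these sums was without overlap, and edgeR called no marker of these 3 lists. DESeq2 called 2 Sertoli markers, 1 erythroid and 1 endothelial marker lower, and 1 macrophage marker higher. The sum of 12 stromal markers was 121 to 154 CPM in saline and 141 to 147 CPM in dex. Hoxb5, Hoxb6 and Hoxb8 had a lower level in somatic than in germ cells in both treatments. Hoxb9, which was the only one of the 4 with a higher level in somatic cells, had 8.58% of the somatic level in dex germ cells against 19.5% in saline. The part of somatic RNA in the fall of any of the 4 genes was not tested.

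Outside Hoxb no germ cell difference was called. Hoxd1 had 0.847, 1.23 and 1.90 CPM in saline and 2.49, 3.80 and 2.10 CPM in dex, with no overlap (1.07 ± 0.37, adjusted p = 0.181). Hoxd8 had 2.27, 3.15 and 2.39 against 4.04, 3.80 and 4.20 CPM (0.62 ± 0.26, adjusted p = 0.272), also with no overlap. Hoxd9, its neighbour, was at -0.24 ± 0.45 (adjusted p = 0.862), Hoxd11 at -0.48 ± 0.76 and Hoxd13 at 0.76 ± 0.49 (adjusted p = 0.509). In Hoxc, Hoxc6 was at -1.22 ± 0.60 (adjusted p = 0.364), Hoxc4 at -0.96 ± 0.41 (adjusted p = 0.296), Hoxc9 at 0.27 ± 0.26 and Hoxc13 at 0.17 ± 0.25. In Hoxa the range ran from -0.23 ± 0.66 at Hoxa13 to 0.70 ± 0.51 at Hoxa4 (adjusted p = 0.578). Hoxa9, Hoxc8 and Hoxd10 were among the 15 entries with too few germ cell counts to be tested, at 4 to 26 counts in all over the saline germ libraries.

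**Figure D4:**
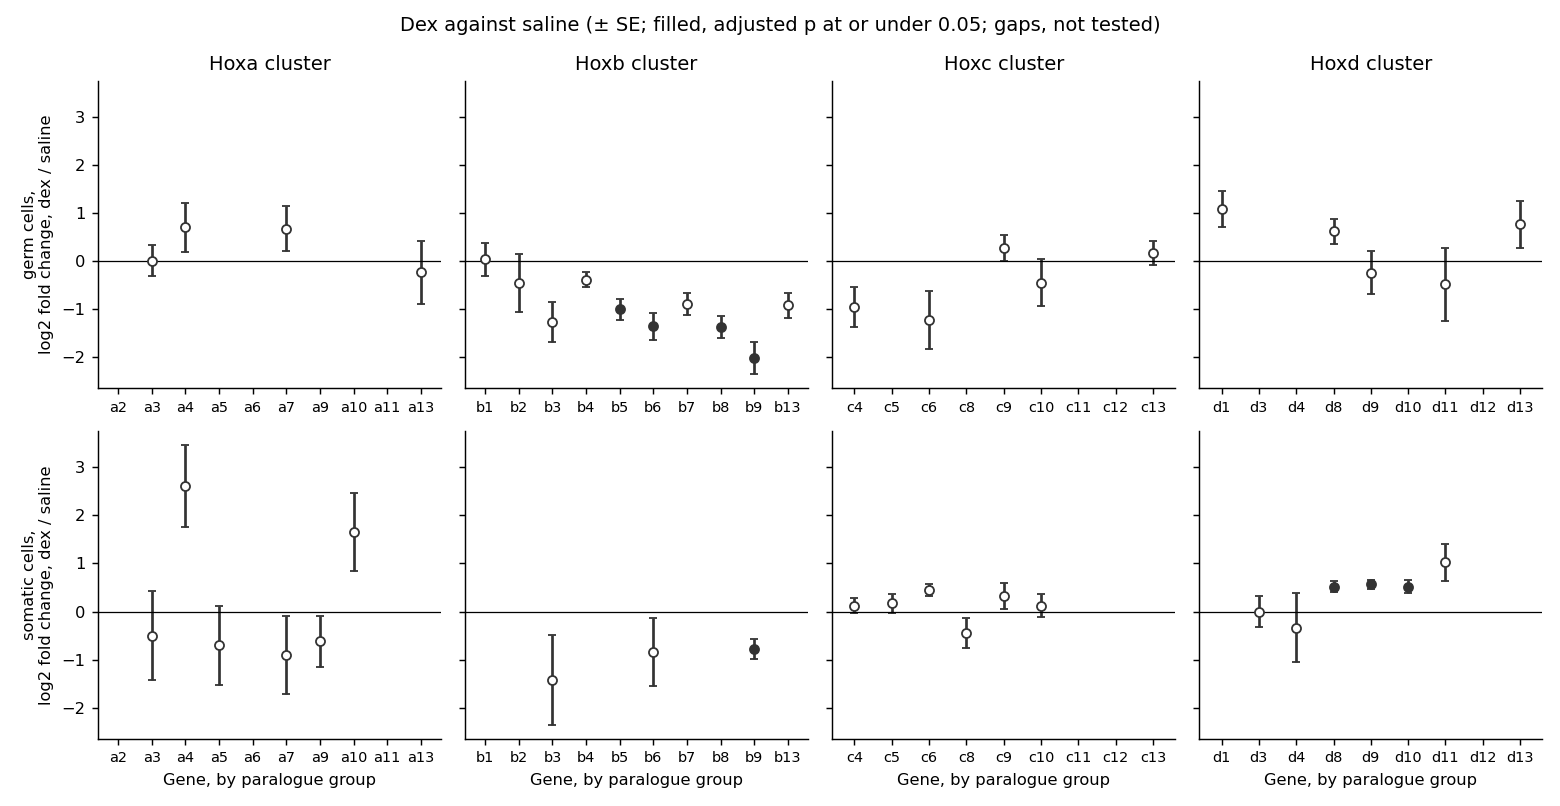
Log2 fold change of dex over saline (y axis, ± SE) for Hox genes tested, by cluster and paralogue group (x axis), in germ cells (top) and somatic cells (bottom). Filled points have an adjusted p at or under 0.05 and gaps are genes not tested. In germ cells 9 of 10 Hoxb genes lie below 0, and in somatic cells Hoxd8, Hoxd9 and Hoxd10 are filled above 0.

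In somatic cells the genes called higher in dex were the 3 highest members. Hoxd8, Hoxd9 and Hoxd10 rose by 1.43-fold, 1.48-fold and 1.43-fold, and Hoxb9 fell by 1.72-fold. The 3 Hoxd genes are neighbours on chromosome 2 (plus strand), Hoxd10 at chr2:74691924-74695105, Hoxd9 at chr2:74697727-74700208 and Hoxd8 at chr2:74704615-74707933. These were the 4 calls among 21 members tested, 3 higher and 1 lower, where 2.74% of 16766 genes were higher and 1.17% lower. Hoxd9 had 167, 137 and 132 CPM in saline and 211, 212 and 207 CPM in dex (0.57 ± 0.10, adjusted p = 0.00304). Hoxd8 had 97.1, 89.4 and 84.0 against 130, 142 and 107 CPM (0.52 ± 0.11, adjusted p = 0.0103). Hoxd10 had 26.8, 31.6 and 27.6 against 38.4, 48.4 and 33.4 CPM (0.52 ± 0.14, adjusted p = 0.0476). In each of these 3 neighbours, every dex library was above every saline library. Hoxb9 had 15.3, 28.5 and 20.4 CPM in saline and 13.6, 9.002 and 13.7 CPM in dex, without overlap (-0.78 ± 0.21, adjusted p = 0.0491).

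The call of Hoxd9 held without any 1 of the 6 libraries, at 0.49 to 0.70 on the log2 scale. That of Hoxd8 was lost without dex replicate 2 (0.43, adjusted p = 0.0633) or saline replicate 3 (0.48, adjusted p = 0.0680). Those of Hoxd10 and Hoxb9 were each lost in 5 of the 6 cases. Hoxd10 held only without dex replicate 3 (adjusted p = 0.0275), and without the others its adjusted p was 0.0717 to 0.231. Hoxb9 held only without saline replicate 1 (adjusted p = 0.0256), and without the others its adjusted p was 0.0729 to 0.215. Without saline replicate 2, the library described above, Hoxb9 was at -0.56 (adjusted p = 0.215), Hoxd10 at 0.56 (adjusted p = 0.0717), Hoxd8 at 0.48 (adjusted p = 0.0358) and Hoxd9 at 0.49 (adjusted p = 0.00948).

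**Figure D5:**
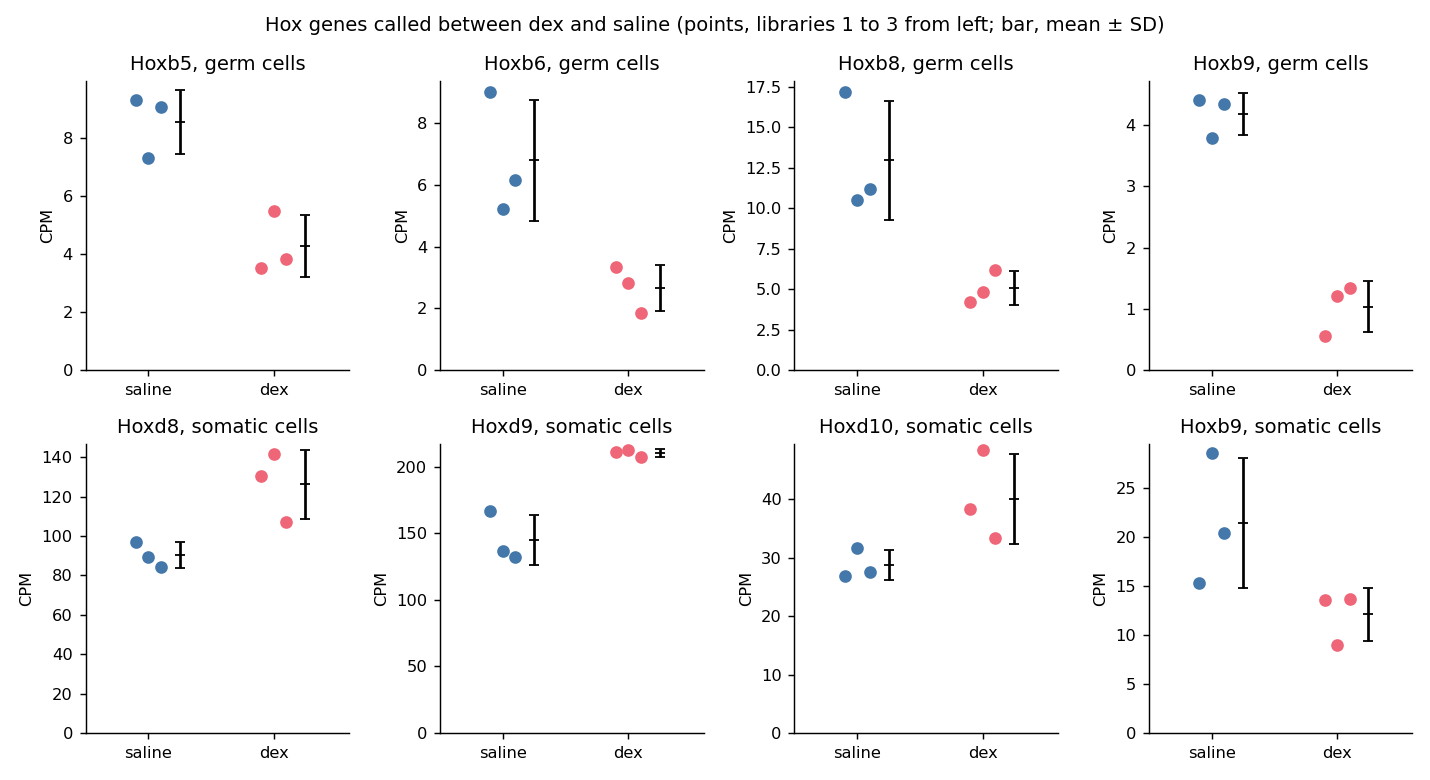
CPM (y axis, from 0) of the genes called between dex and saline, in germ cells (top) and somatic cells (bottom); points are replicates 1 to 3 from left to right and the bar is mean ± SD. In all 8 panels the dex libraries do not overlap the saline libraries.

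Marker levels of the somatic libraries differed beside these genes. The sum of 12 stromal markers was 5558 to 7393 CPM in saline somatic cells and 8943 to 10333 CPM in dex, and 4 of the 12 were called higher, Col1a1 at 0.82, Dcn at 0.72, Pdgfra at 0.50 and Acta2 at 0.44. The sum of 8 macrophage markers was 54.7 to 93.8 CPM in saline and 24.3 to 34.7 CPM in dex, with 3 called lower, Csf1r, Lyz2 and Mrc1. The Sertoli sum was 6868 to 7345 CPM in saline and 6533 to 7329 CPM in dex. The part of these shifts in the Hox differences was not tested.

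The other members of somatic cells were not called by edgeR. Hoxc6 had 25.7, 28.2 and 32.8 CPM in saline and 36.5, 40.3 and 39.5 CPM in dex, without overlap, at 0.46 ± 0.12 (adjusted p = 0.0547), and it was called without saline replicate 3 (0.57, adjusted p = 0.0378). Hoxc6 was also called by DESeq2 (adjusted p = 0.0312), without the filter on low counts (0.0225), with at least 10 counts in every library (0.0482) and with a replicate block (0.0470). Hoxd11, next to Hoxd10, was at 1.02 ± 0.38 (adjusted p = 0.178), with 3.69, 2.60 and 1.33 CPM in saline and 5.60, 4.11 and 5.44 CPM in dex. Hoxa4 had the largest estimate of all members, 2.60 ± 0.84 (adjusted p = 0.114), on 3, 2 and 6 counts in saline and 32, 16 and 13 in dex. Hoxc8 was at -0.44 ± 0.31, Hoxa7 at -0.91 ± 0.80 and Hoxa5 at -0.70 ± 0.82, and without saline replicate 2 they were at 0.15, 0.39 and 0.43. Hoxb3 was at -1.42 ± 0.93, Hoxb6 at -0.84 ± 0.70 (-0.092 without saline replicate 2), Hoxa9 at -0.62 ± 0.53, Hoxc9 at 0.33 ± 0.26 and Hoxd4 at -0.34 ± 0.71. The 3 Hoxb genes tested had a median of -0.84, the 18 other entries a median of 0.15, and all genes tested a median of -0.007. Another 19 entries, Hoxb4, Hoxb5, Hoxb7 and Hoxb8 among them, did not pass the filter in somatic cells. In dex somatic cells the Hoxd sum was 166, 179 and 153 FPKM against 128, 107 and 106 FPKM in saline, and the Hoxb sum was 6.83, 4.40 and 5.82 against 7.05, 14.4 and 8.60 FPKM.

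A contrast over all 12 libraries asked whether dex acted differently on the populations. Of 33 members tested, none was called by edgeR, where 0.414% of 20551 genes were called in each direction. An unadjusted p under 0.05 by edgeR was found for 5 members, 1 above 0 and 4 below, where 2730 of 20551 genes had one. DESeq2 called 1, Hoxc6, and limma on FPKM called none. Hoxc6 had the lowest adjusted p, with a germ minus somatic difference of -1.66 ± 0.39 (adjusted p = 0.0567; DESeq2 -1.69 ± 0.44, adjusted p = 0.00893), on 45 counts over the 3 saline germ libraries and 21 over the dex germ libraries. Hoxc4 was at -1.04 ± 0.32 (adjusted p = 0.148), Hoxd9 at -0.79 ± 0.32 (adjusted p = 0.294) and Hoxb9 at -1.18 ± 0.41 (adjusted p = 0.205). Hoxb4 was at 1.89 ± 0.75 (adjusted p = 0.280), where the somatic libraries held 20, 28 and 7 counts in saline and 1, 9 and 0 in dex. Hoxd8 had a difference of 0.13 ± 0.20 (adjusted p = 0.874). The estimates ranged from -1.88 ± 0.94 at Hoxa4 to 2.78 ± 1.38 at Hoxa9 in Hoxa, down to -1.95 ± 1.46 at Hoxb13 in Hoxb, up to 0.74 ± 0.74 at Hoxc8 in Hoxc, and from -1.47 ± 0.85 at Hoxd11 to 1.58 ± 1.30 at Hoxd1 in Hoxd. Of these, Hoxa9, Hoxb13 and Hoxd1 had a mean under 3 counts in at least 1 group, so their estimates rest on few counts. A difference of the dex response between the populations was therefore not shown for any member by the test used here, including Hoxb5, Hoxb6 and Hoxb8, where the SE of the difference was 2.03, 0.70 and 1.29 on the log2 scale. For Hoxa13, Hoxb1, Hoxc13 and Hoxd4, which had no counts in one population, the estimate carries no information.

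The members of paralogue groups 8 and 9, chosen as the positions around Hoxb8 and Hoxb9, differed in level by cluster. In saline somatic cells Hoxd8 and Hoxd9 were at 31.5 and 65.1 FPKM, Hoxc8 and Hoxc9 at 3.95 and 2.24, Hoxb8 and Hoxb9 at 0.399 and 7.91, and Hoxa9 at 0.345. In saline germ cells Hoxb8 and Hoxb9 were at 4.91 and 1.62, Hoxc8 and Hoxc9 at 0.1495 and 1.5975, Hoxd8 and Hoxd9 at 0.945 and 0.627, and Hoxa9 at 0.012. Hoxb9 was the only member called lower in dex in both populations. Hoxb5 and Hoxb8, also called lower in germ cells, were not tested in somatic cells. The somatic call of Hoxb9 was lost in most fits with a library left out, as given above. The comparisons do not share libraries, but both populations were sorted from pooled testes of dosed litters and may share animals.

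Promoter windows of 300 bases, 250 before and 50 after a start annotated in RefSeq (GRCm38.p6), were found for 22 symbols in 24 windows. These starts are not always those of the deposited gene coordinates. The windows of Hoxa7, Hoxa9 and Hoxc4, among others, lie inside the deposited gene, and that of Hoxd9 is shifted from the deposited start. All windows were searched on both strands for AGAACA, the hexamer that each monomer of the GR binds. It was in 18.97% of all 32851 windows and in 2 of the 24 Hox windows (8.333%), those of Hoxa9 and Hoxa11. Of the called members with a window, Hoxb8, Hoxd8, Hoxd9 and Hoxd10, none held it. Only these letters in these windows were searched. Hox windows had a median observed over expected CpG ratio of 0.627, against 0.384 over all windows. The windows of Hoxb8 (chr11:96281655-96281954, plus strand, 13 CpG), which fell in germ cells, and of Hoxd9 (chr2:74697513-74697812, plus strand, 20 CpG), which rose in somatic cells, are printed with each CpG in capitals.
Hoxb8: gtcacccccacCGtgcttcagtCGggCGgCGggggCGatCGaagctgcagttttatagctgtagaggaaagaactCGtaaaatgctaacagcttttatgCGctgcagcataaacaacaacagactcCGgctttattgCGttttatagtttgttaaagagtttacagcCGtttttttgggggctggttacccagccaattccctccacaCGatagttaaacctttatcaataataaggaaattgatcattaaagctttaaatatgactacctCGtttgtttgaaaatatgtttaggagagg
Hoxd9: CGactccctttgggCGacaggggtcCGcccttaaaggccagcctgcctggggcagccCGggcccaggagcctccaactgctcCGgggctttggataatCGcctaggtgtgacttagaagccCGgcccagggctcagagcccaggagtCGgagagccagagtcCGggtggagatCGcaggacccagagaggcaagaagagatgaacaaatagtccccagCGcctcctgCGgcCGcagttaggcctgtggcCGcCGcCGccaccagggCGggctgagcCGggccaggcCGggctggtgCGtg

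Genes that act with or on the Hox clusters were described by lists. Of 9 TALE cofactors, 2 were higher and 6 lower in saline germ cells, where 39.8% of all genes tested were higher and 36.7% lower. Meis1 was at 2.05 CPM in germ and 53.0 CPM in somatic cells (-4.74, adjusted p = 2e-10), and Pbx2 was higher in germ cells at 192 against 80.7 CPM (1.19 ± 0.10, adjusted p = 2.37e-07). Of 26 Polycomb genes 16 were higher and 9 lower in germ cells, among them Jarid2 (2.55 ± 0.08) and Pcgf5 (4.60 ± 0.13) higher and Cbx6 (-3.00 ± 0.11) lower, and of 13 Trithorax genes and H3K27 demethylases 6 were higher and 3 lower, to be read against the same shares. Of the non-coding and antisense genes of the clusters, 17 of 20 listed were found and 4 were tested, 1 higher and 3 lower in saline germ cells. With dex no cofactor was called in either population by edgeR or DESeq2, with an unadjusted p under 0.05 for 2 of 9 in germ cells and 2 of 9 in somatic cells, where 2736 of 18550 and 2701 of 16766 genes had one. In germ cells edgeR called no Polycomb gene with dex and DESeq2 called 1, lower, with 6 of 26 at an unadjusted p under 0.05 by edgeR. In somatic cells 2 Polycomb genes rose with dex, Rbbp7 by 0.63 ± 0.08 (adjusted p = 3.43e-04) and Cbx6 by 0.43 ± 0.08 (adjusted p = 0.00362) on the log2 scale, where 2.74% of all genes rose, and Rbbp7 was the only cofactor, Polycomb or Trithorax gene for which edgeR called a difference of the dex effect between germ and somatic cells (-0.68 ± 0.12, adjusted p = 0.0123). Mir196a-1 had 40, 111 and 120 counts in dex somatic cells against 103, 170 and 158 in saline, at -0.51 ± 0.34 (adjusted p = 0.511).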

How the data were processed

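Per the labels and the study's methods, the authors aligned paired-end reads of polyadenylated RNA to mm10 with HISAT2 2.0.5 and made the deposited raw counts per gene with featureCounts 1.5.0-p3. They also deposited FPKM values, computed from gene length, depth and these counts. The annotation release and the strand setting are not given in the sources used here. Tables of the authors' own comparisons (DESeq2 1.20.0, fold changes and p-values) were not used.

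Counts were tested over all genes with edgeR 4.0.16 in R 4.3.3 (filterByExpr with a minimum count of 10, TMM scaling, quasi-likelihood test, Benjamini-Hochberg adjustment, called at an adjusted p of 0.05 or less). Each comparison of 2 groups used its 6 libraries, and the difference of the dex effects used all 12. CPM were scaled by TMM over the 12 libraries. The alternatives were DESeq2 1.42.0, other scalings and filters, limma 3.58.1 on log2(FPKM + 0.1), a replicate block and leaving out each library. Replicates of a group had a Pearson r of 0.972 to 0.983 in log2 CPM, and p-values measure the spread between these pools. On simulated counts the edgeR test recovered 92% of genes with a true log2 change of 1 between dex and saline in germ cells, 90% in somatic cells and 53% for the difference of the effects. In the simulations only genes with a mean count well above the floor were changed, and every gene had the same spread. The recovered shares do not apply to members with few counts or a wider spread. Gene coordinates are those of the deposited tables.

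The members, the gene lists and the rule for named genes were chosen with earlier results of these data known. The rule named members called with dex, the 3 highest per cluster in saline germ and somatic cells, those higher in saline germ cells, paralogue groups 8 and 9, and the largest and smallest change of each cluster per comparison. The values of 1 member are not reported here by name or in the figures, and it stays in the counts, sums and medians.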

Additional observations from a re-analysis of the deposited data

How the results depend on the processing

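Of the called members followed gene by gene, none changed direction under any alternative run. Hoxc10, Hoxd3 and Hoxd11, called lower in germ than in somatic cells, were not followed in that comparison. A filter of at least 10 counts in every library, which drops genes absent from 1 population, left 8 members called between germ and somatic cells in saline and 5 in dex, against 23 in each. For dex in germ cells, limma on log2(FPKM + 0.1) called 0 members (6 genes in all) and the replicate block 2 (Hoxb8, adjusted p = 0.0457, and Hoxb9, adjusted p = 0.0414), while DESeq2 called 5 (with Hoxb7), no filter 6 (with Hoxb7 and Hoxb13) and library totals 3, and leaving out 1 library gave 0 to 4. For dex in somatic cells limma called 1 and library totals 3, DESeq2, no filter and the filter of 10 counts 5 each (with Hoxc6), and the block 4 (with Hoxc6, without Hoxb9), and leaving out 1 library gave 1 to 3. For the difference of the dex effects DESeq2 called 1 member and no filter 2, Hoxc6 and Hoxb4, and leaving out 1 library gave 0 to 1, the 1 being Hoxc6 without dex germ replicate 1. Over all genes, dex in germ cells gave 231 calls by edgeR, 675 by DESeq2, 6 by limma and 65 with the block, dex in somatic cells 655, 905 and 251 by edgeR, DESeq2 and limma, and the difference 170 by edgeR and 620 by DESeq2. The causes were not tested. Correlations of deviations between replicates with the same number were -0.088 to 0.045, none over 0.1, so the numbers were not taken to pair the samples. Between germ and somatic cells in saline the 3 were 0.037 to 0.045 and the other 6 below 0, so that there each sample correlated best with its own number, which did not hold in the other comparisons. Scaling by library totals moved the median of all genes between germ and somatic cells from 0.07 to 0.21 in saline and from 0.12 to 0.30 in dex.

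Among the members followed, some that were not called changed sign when 1 library was left out, given as log2 ranges. Between germ and somatic cells these were Hoxa7 in saline (-1.35 to 0.54) and Hoxa4 in dex (-0.43 to 0.40, 0.0231 by library totals and 0.0307 by limma). For dex in germ cells they were Hoxa3 (-0.11 to 0.14), Hoxa13 (-0.69 to 0.26), Hoxb1 (-0.30 to 0.41) and Hoxd9 (-0.54 to 0.0843), and in somatic cells Hoxa3 (-1.17 to 0.0539), Hoxa5 (-1.47 to 0.43), Hoxa7 (-1.41 to 0.39) and Hoxc8 (-0.69 to 0.15). For the difference they were Hoxb7 (-2.44 to 0.0514), Hoxb8 (-2.31 to 3.00, and -0.52 by limma), Hoxc8 (-0.0528 to 1.13), Hoxc9 (-0.32 to 0.23, 0.0230 by library totals and 0.000530 with no filter) and Hoxd10 (-0.13 to 1.19). Depth limits the genes with under about 10 counts per library, which are most of Hoxa and the somatic levels of Hoxb.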
